A study of Mus musculus with 3 samples.

Results

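Enzymes that activate, oxidise, build, lengthen and desaturate fatty acids were examined in type 2 innate lymphoid cells (ILC2s), lymphocytes of barrier tissues that make type 2 cytokines without an antigen receptor. The 32 enzyme genes were chosen by name for their role, with earlier results of these data known. All 32 were among the 16129 genes of the deposited table. The cells had been sorted from digested lung of wild type mice treated with IL-33 in vivo, and 3 RNA sequencing libraries (replicates 1 to 3) form the single group. The labels state no strain, age, sex, IL-33 dose or sorting markers. No untreated library was analysed here, so every comparison lies between genes within the same libraries and none measures an effect of IL-33. Whether each library came from a different mouse is not stated in the labels. Variation among the libraries could thus be technical in origin, and the p-values given later apply to these libraries alone. With n = 3 they depend mainly on whether the differences of a pair share a sign, and they do not measure the spread.

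Long-chain fatty acids enter metabolism once an acyl-CoA synthetase has joined them to coenzyme A. For oxidation they cross into mitochondria as carnitine esters and are shortened by a repeating cycle of dehydrogenation, hydration, dehydrogenation and thiolysis, with electrons passed on through electron transfer flavoprotein. Synthesis runs in the cytosol from citrate through acetyl-CoA and malonyl-CoA to palmitate, which elongases and desaturases of the endoplasmic reticulum then modify. Malonyl-CoA, the product of acetyl-CoA carboxylase, inhibits the carnitine step, so the opposed routes share a control point. ILC2s are known for taking up fatty acids from their surroundings and for using them as fuel and for membranes when they multiply.

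The sequences that follow are shown because they lie before members on which the results turn: the subunit pair Hadha and Hadhb, the highest member Elovl5, and a pair of isozymes at unlike levels, Acsl5 and Acsl1. They are from RefSeq, build GRCm38.p6, on the plus strand and 5′ to 3′, and no GENCODE exon covers them. Hadha (chr5:30119423-30154980, minus strand) and Hadhb (chr5:30155253-30184593, plus strand) are transcribed away from each other, with 272 bases between the RefSeq genes. The 85 bases between them at chr5:30155163-30155247 hold the GC box GGGCGG at 2 places, shown in capitals and both on the plus strand.
Hadha-Hadhb: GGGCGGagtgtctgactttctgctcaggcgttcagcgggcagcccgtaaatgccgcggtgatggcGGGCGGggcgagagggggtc
Capitals in the next sequences mark CCAAT boxes on either strand, the E-box CACGTG in Elovl5 (chr9:77917115-77917363) and, in Acsl1 (chr8:46490716-46490965), the sterol regulatory element TCACNCCAC on the minus strand. The Acsl5 stretch is chr19:55253119-55253368. The starts of Acsl1 and Acsl5 used here lie inside the RefSeq genes, downstream of their first listed base. A gene can have several starts. For Elovl5, Acsl5 and Acsl1 a stretch was printed only if it held the E-box, a CCAAT box or the sterol regulatory element, respectively. Acsl1 has another window, not printed, that holds a GC box.
Elovl5: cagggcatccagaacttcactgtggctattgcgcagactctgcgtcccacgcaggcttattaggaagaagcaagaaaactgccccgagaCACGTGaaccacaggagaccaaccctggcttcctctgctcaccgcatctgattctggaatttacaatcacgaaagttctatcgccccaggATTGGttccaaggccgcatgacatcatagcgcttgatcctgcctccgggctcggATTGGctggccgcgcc
Acsl5: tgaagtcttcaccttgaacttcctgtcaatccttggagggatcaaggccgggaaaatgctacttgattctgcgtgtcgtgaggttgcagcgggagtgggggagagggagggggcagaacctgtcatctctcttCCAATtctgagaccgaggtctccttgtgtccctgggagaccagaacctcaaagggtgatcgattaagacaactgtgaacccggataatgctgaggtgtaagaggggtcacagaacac
Acsl1: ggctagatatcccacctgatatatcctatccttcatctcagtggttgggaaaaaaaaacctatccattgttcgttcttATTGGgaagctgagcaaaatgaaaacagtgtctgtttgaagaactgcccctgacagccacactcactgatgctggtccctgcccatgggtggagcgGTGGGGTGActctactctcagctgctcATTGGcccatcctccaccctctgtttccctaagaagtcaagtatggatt

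Upstream windows of 250 bases were given for 28 of the 32 members, and not for Acaa2, Scd1, Scd2 and Fads1. There were 32851 windows in all, and a gene was counted for a motif if any of its windows held it. On either strand, the GC box GGGCGG occurred in 17 of the 28, against 35.4% of 27025 genes with a window, and CCAAT in 14 of the 28, against 37.5%. The E-box CACGTG occurred in 1 member, Elovl5, against 6.86% of all genes. The sterol regulatory element TCACNCCAC occurred in 1 member, Acsl1, against 1.22%. The peroxisome proliferator response element, searched as a direct repeat of AGGTCA with 1 base between, was in 0 of the 28 members and in 0.0407% of all genes. These counts describe letters in a short window and show neither binding nor its absence.

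All 17 enzymes of breakdown among the members were detected. In the Cpt1, Acsl, acetyl-CoA carboxylase, Scd, Fads and Elovl families, 1 or 2 isozymes held most of the family's transcripts. Levels are given as TPM, the transcripts of a gene among 1000000 in the library, which allow for transcript length, as mean ± SD over n = 3 libraries. Detection was set at 1 TPM in each library, which 30 of the 32 members reached in all 3, against 67.3% of all listed genes. The exceptions were Acacb and Scd1, below 1 TPM in all 3 libraries. A mean of at least 10 TPM was reached by 26 members, against 51.2% of all genes, and a mean of at least 100 TPM by 10 members, against 10.3%. The median member stood at 70.5 TPM and the median listed gene at 11.2 TPM. Their summed level was 2495, 2489 and 2534 TPM in replicates 1, 2 and 3.

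The libraries held 19948056, 19883728 and 19976129 estimated reads. All 11 ILC2 markers examined, among them Gata3, Il1rl1 and Il13, had means between 156 and 1526 TPM. Among cells rich in lipid enzymes, 5 of 8 listed alveolar type II epithelial markers were detected, with a summed level of 36.9 to 38.2 TPM per library and Sftpc at 9.40 ± 1.81 TPM. Of 11 listed macrophage markers 9 were detected, and the sum of the 11 was 402, 394 and 551 TPM in replicates 1 to 3. Chil3 alone, at 338, 327 and 461 TPM, made up 83.5% of that sum, and Lyz2 was next at 33.1, 37.4 and 46.8 TPM. All 11 were highest in replicate 3. The same held for 7 of the 26 fatty acid enzymes averaging 10 TPM or higher, against 3405 of all 8262 genes at that level, and for 0 of the 6 lower enzymes. The share among all genes below 10 TPM was not computed. Of the listed markers of other cells, 2 of 5 for T cells and 1 of 4 for endothelium were detected. For B cells 0 of 4 and for fibroblasts 0 of 5 were detected. The 4 adipocyte markers looked for were not among the listed genes, so no level can be given for them. The part of such cells in the levels below was not tested. In bulk libraries, fewer cells of a type and less RNA per cell cannot be told apart.

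**Figure D1:**
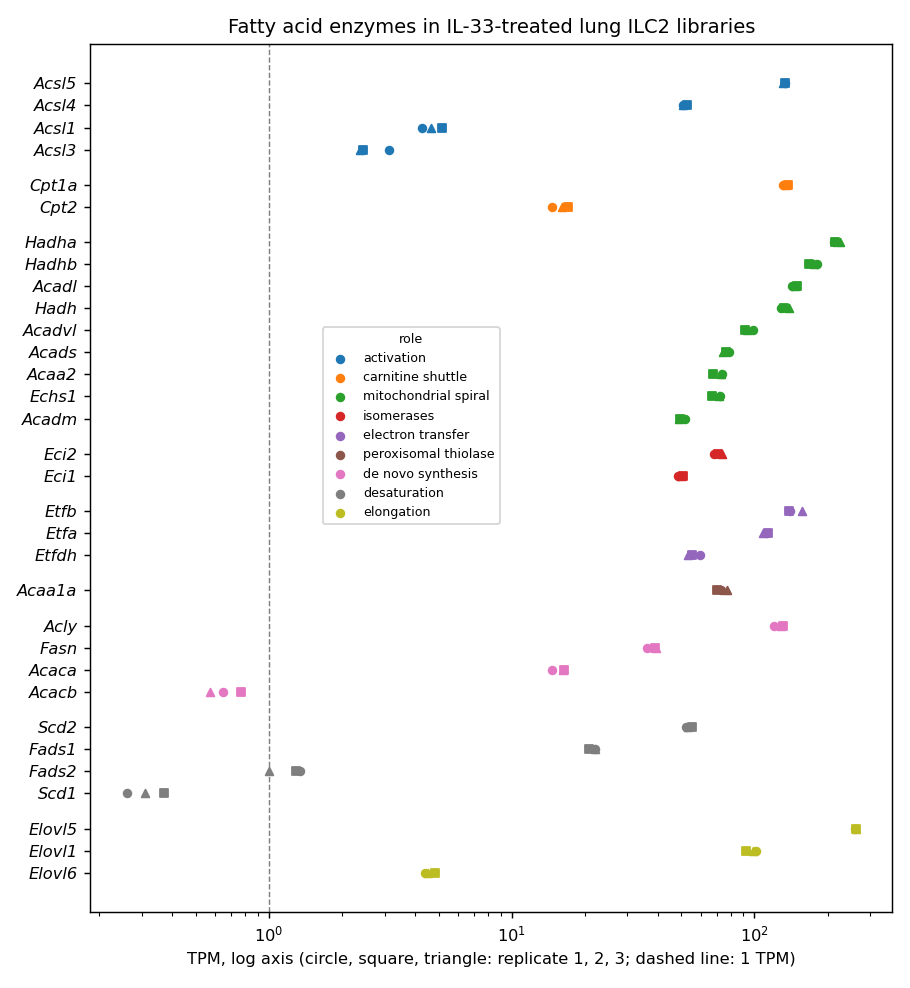
TPM of the 32 fatty acid enzymes on a log axis, grouped by role, with 1 symbol per library and a dashed line at the detection level of 1 TPM. The enzymes of the carnitine shuttle, spiral, isomerases, electron transfer and peroxisomal thiolase lie between 15.96 and 218 TPM on average, whereas activation, synthesis, desaturation and elongation each contain both high and low isozymes.

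Among the 4 long-chain synthetases of the Acsl family, Acsl5 and Acsl4 were the high ones. Acsl5, a long-chain acyl-CoA synthetase of mitochondria and endoplasmic reticulum, was at 134, 134 and 132 TPM in replicates 1 to 3. Acsl4, which prefers arachidonate and other polyunsaturated chains, was at 50.9, 53.0 and 50.7 TPM. Acsl1, the synthetase prominent in liver, heart and fat, was at 4.28, 5.17 and 4.66 TPM, and Acsl3, which acts at forming lipid droplets, at 3.13, 2.44 and 2.38 TPM. The ranges of the higher pair and of the lower pair lie far apart and do not overlap. Acsl5 made up 69.3 ± 0.424% of the TPM of these 4 synthetases and Acsl4 26.8 ± 0.371%, leaving 2.45 ± 0.216% for Acsl1 and 1.38 ± 0.215% for Acsl3. Acsl4 exceeded Acsl1 by 3.21 ± 0.09 on the log2(TPM + 1) scale, a TPM ratio of 11 ± 0.836, in 3 of 3 libraries. Some exons of Acsl5 (8.31% of its exonic bases) lie opposite exons of Zdhhc6, and without strand their reads cannot be told apart. A synthetase outside this family was higher still. Acsbg1, of the bubblegum family of acyl-CoA synthetases, was at 220, 226 and 231 TPM, which is 1.17 ± 0.0382 times the sum of the 4 Acsl genes.

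At the carnitine shuttle the entry enzyme far exceeded the exit enzyme. Cpt1a, the carnitine palmitoyltransferase of the outer mitochondrial membrane and the regulated entry step, was at 131, 138 and 135 TPM. Cpt2, which restores acyl-CoA inside the inner membrane, was at 14.73, 17.03 and 16.12 TPM, the lowest of the 17 breakdown genes. Cpt1a exceeded Cpt2 by 3.00 ± 0.06 on the log2(TPM + 1) scale, or 8.45 ± 0.414 times in TPM, in every library. The carrier between them, Slc25a20, which exchanges acylcarnitine for carnitine across the inner membrane, was at 67.3 ± 2.86 TPM. Cpt1a was also almost the sole isozyme of its step, with 99.2 ± 0.190% of the TPM of Cpt1a, Cpt1b and Cpt1c. Cpt1c was at 0.247 ± 0.0950 TPM, and the muscle isozyme Cpt1b at 0.61, 1.22 and 0.85 TPM.

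The mitochondrial spiral was led by the trifunctional protein. Hadha, its subunit with hydratase and long-chain hydroxyacyl-CoA dehydrogenase activity, was at 213, 215 and 225 TPM. Hadhb, its thiolase subunit, was at 182, 168 and 175 TPM, below Hadha in each library with no overlap. The difference of 0.31 ± 0.08 on the log2(TPM + 1) scale, or 1.25 ± 0.0651 in TPM ratio, was larger than its SD, and in CPM (counts per 1000000 reads, which leave length out) it was 0.73. The intergenic stretch printed above lies between these subunit genes. Hadhb is less certain than Hadha, since 19.7% of the 50-base words in its GENCODE transcripts also occur in other genes, mainly the pseudogene Gm13910.

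The acyl-CoA dehydrogenases, which open each turn and differ in the chain length they accept, were all detected. Acadl, the long-chain enzyme, was at 143, 149 and 147 TPM. Acadvl, for very long chains, was at 98.3, 91.5 and 93.4 TPM, and Acads, for short chains, at 78.6, 76.1 and 74.1 TPM. Acadm, for medium chains, was the lowest at 51.8, 49.5 and 48.9 TPM. Ranges of these 4 genes did not overlap, in the order Acadl, Acadvl, Acads, Acadm. They shared their summed TPM as 39.9 ± 1.24%, 25.7 ± 0.742%, 20.8 ± 0.383% and 13.6 ± 0.262%. The difference of Acadm from Acadl was -1.53 ± 0.07 on the log2(TPM + 1) scale, with Acadm lower in 3 of 3 libraries. Of the exonic bases of Acadvl, 42.9% lie opposite exons of Dvl2 (24.3 TPM), and the counting is not stated to use strand.

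Of the later steps for shorter chains, the dehydrogenase was the highest. Hadh, the hydroxyacyl-CoA dehydrogenase of medium and short chains, was at 129, 132 and 139 TPM. Echs1, the short-chain enoyl-CoA hydratase, was at 72.1, 67.1 and 71.2 TPM, and Acaa2, the mitochondrial thiolase, at 73.5, 67.5 and 72.9 TPM. The values of Echs1 and Acaa2 overlapped, while Hadh was higher in every library. Eci1 and Eci2 encode isomerases that move double bonds of unsaturated chains into a position the spiral can use. Eci2 (70.8 ± 2.58 TPM) exceeded Eci1 (49.7 ± 1.18 TPM) in 3 of 3 libraries, and the difference of Eci1 from Eci2 was -0.50 ± 0.04 on the log2(TPM + 1) scale and -1.07 in CPM.

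Electron transfer genes were likewise high. Etfb and Etfa encode the subunits of electron transfer flavoprotein, which takes electrons from the acyl-CoA dehydrogenases, and Etfdh encodes the oxidoreductase that hands them to ubiquinone. Etfb was at 141, 139 and 157 TPM, Etfa at 113, 114 and 108 TPM, and Etfdh at 59.7, 55.3 and 53.3 TPM. Etfa lay below Etfb in each library, by -0.38 ± 0.13 on the log2(TPM + 1) scale. That order depends on scaling by length: in CPM, Etfa was above Etfb by 0.34. Of the 50-base words of Etfb, 44.8% also occur in another annotated gene, mostly Gm45233, the highest such share among the members.

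Acaa1a, the thiolase that ends each turn in peroxisomes, was at 72.7, 70.4 and 77.3 TPM. These values overlapped those of the mitochondrial Acaa2, with a difference of -0.04 ± 0.05 on the log2(TPM + 1) scale and Acaa2 higher in 1 of 3 libraries. In CPM the difference was -0.25. The near relative Acaa1b, which shares 12.4% of the 50-base words of Acaa1a, was at 0.0833 ± 0.0723 TPM.

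In de novo synthesis the carboxylase was lower than the enzymes before and after it. Acly, which splits cytosolic citrate to acetyl-CoA, was at 121, 131 and 129 TPM. Acaca, the cytosolic acetyl-CoA carboxylase that commits carbon to synthesis, was at 14.6, 16.5 and 16.3 TPM. Fasn, the fatty acid synthase, was at 36.1, 39.0 and 39.3 TPM. The 3 ranges were separate from each other. Fasn lay below Acly with a difference of -1.71 ± 0.02 on the log2(TPM + 1) scale, at a TPM ratio of 0.301 ± 0.00348. In CPM that difference was -0.64. The TPM ratio varied little among libraries, although each gene alone varied by 4.17% (Acly) and 4.71% (Fasn) of its mean.

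The carboxylase isozymes were far apart. Acacb, the isozyme of the mitochondrial surface whose malonyl-CoA restrains Cpt1a, was at 0.65, 0.77 and 0.57 TPM, from 51, 60 and 46 estimated reads. Acaca exceeded it by 3.34 ± 0.11 on the log2(TPM + 1) scale and held 96.0 ± 0.574% of their joint TPM. Cpt1a in turn exceeded Acaca by 3.01 ± 0.06 on that scale, an 8.52 ± 0.368 times higher TPM, in 3 of 3 libraries, and by 1.98 in CPM. Of the 50-base words of Acaca, 30.4% recur in other genes, mainly the pseudogene Gm5182.

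Of the 4 desaturases among the members, Scd2 and Fads1 were the high ones. Scd2, a stearoyl-CoA desaturase that makes monounsaturated chains, was at 52.4, 55.4 and 53.5 TPM. Scd1, the isozyme prominent in liver, fat and skin, was at 0.26, 0.37 and 0.31 TPM, from 12, 17 and 14 estimated reads. The difference was 5.38 ± 0.02 on the log2(TPM + 1) scale, which understates ratios of low genes, and the TPM ratio was 202, 150 and 172 in replicates 1 to 3. The mouse Scd genes lie in 1 cluster of 204422 bases on chromosome 19, in the order Scd3 (chr19:44203288-44244016), Scd2 (chr19:44293676-44306864), Scd4 (chr19:44333326-44346743) and Scd1 (chr19:44394450-44407709). Scd3 and Scd4 were at 0.297 ± 0.0416 and 0.313 ± 0.0503 TPM, so that Scd2 held 98.3 ± 0.210% of the cluster's TPM. Of the 50-base words of Scd1, 4.56% recur in other genes, first among them its relatives. Of the words of Scd2, 2.66% occur in Scd1, and Scd2 had 2733, 2846 and 2742 estimated reads. Reads of Scd2 could thus make up much of the few given to Scd1, which was not tested, and the TPM ratios are uncertain to that extent.

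The front-end desaturases of polyunsaturated chains were also unequal. Fads1, which acts late in the route to arachidonate, was at 22.1, 20.9 and 22.1 TPM. Fads2, which opens that route from the essential fatty acids, was at 1.34, 1.29 and 1 TPM, just at the detection level in replicate 3. Their difference, Fads2 from Fads1, was -3.36 ± 0.15 on the log2(TPM + 1) scale, with Fads2 lower in 3 of 3 libraries. These genes are neighbours on chromosome 19 (Fads2 at chr19:10062765-10101503, Fads1 at chr19:10182877-10196874), and Fads3 beside them was at 0, 0.1 and 0.07 TPM.

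Elongation held the highest member of all. Elovl5, the elongase of polyunsaturated chains, was at 259, 262 and 262 TPM, above every other member in every library. Elovl1, which builds very long saturated and monounsaturated chains, was at 101, 91.9 and 98.3 TPM. Elovl6, which lengthens palmitate to stearate, was at 4.39, 4.83 and 4.54 TPM. The 3 elongases did not overlap. Elovl5 exceeded Elovl6 by 5.55 ± 0.05 on the log2(TPM + 1) scale, a TPM ratio of 57.0 ± 2.47. Of 6 listed elongase genes, Elovl5 made up 71.8 ± 0.981% of the TPM, Elovl1 26.7 ± 1.10% and Elovl6 1.26 ± 0.0730%.

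**Figure D2:**
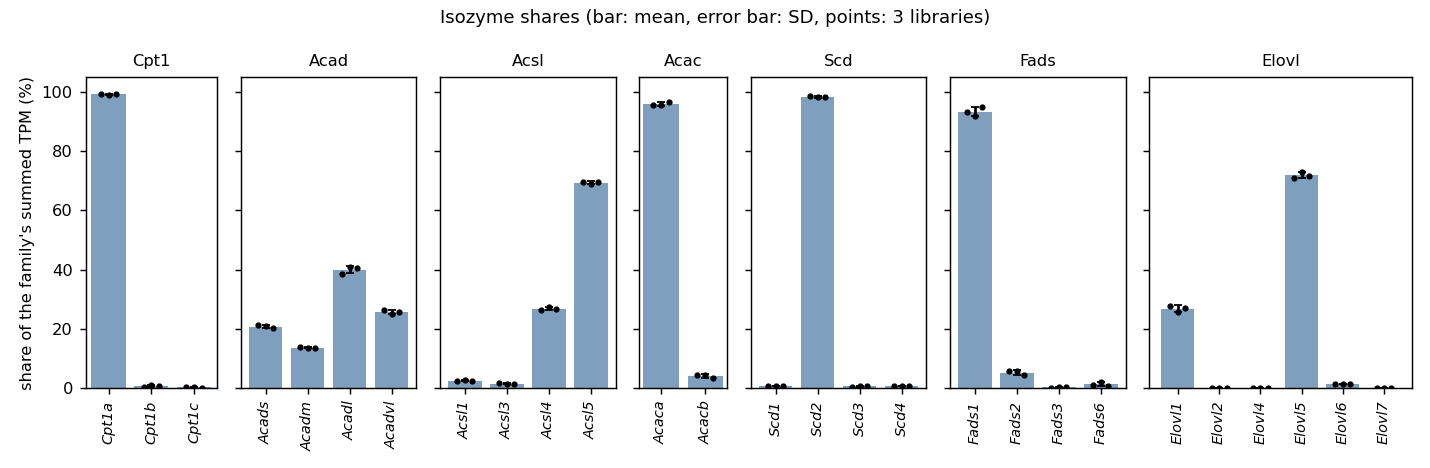
Share of each isozyme in the summed TPM of its family, in percent, with bars for the mean, error bars for the SD and points for the 3 libraries. Cpt1a, Acaca, Scd2 and Fads1 each hold over 90% of their family, Acsl5 and Elovl5 hold 69.3% and 71.8%, and the 4 acyl-CoA dehydrogenases are spread more evenly.

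In all, 13 gene pairs were compared within libraries. In 12 of them the direction was the same in 3 of 3 libraries and the ranges did not overlap. For each of these 12, an exact permutation test by sign flips (two-sided, n = 3 libraries) gave p = 0.25, the smallest it can give, and Benjamini-Hochberg adjustment over the 13 pairs gave 0.271. For Acaa2 and Acaa1a the exact permutation test gave p = 0.5, adjusted 0.5. No pair could pass a threshold of 0.05 in this design, so the differences are read against the spread between libraries. The share of separate ranges over all pairs of listed genes was not computed. Among neighbours in the order of mean TPM, 17 of 31 did not overlap, so separate ranges were not particular to the chosen pairs. The other 14 neighbouring pairs overlapped in their values. These included Acadl with Etfb, Cpt1a with Hadh, Hadh with Acsl5, each neighbouring pair in the run Acads, Acaa1a, Acaa2, Eci2, Echs1, and Cpt2 with Acaca.

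The arms of the network were then compared within each library. The 17 breakdown genes (carnitine shuttle, spiral, isomerases, electron transfer and peroxisomal thiolase) had a mean log2(TPM + 1) of 6.44, and the 11 synthesis genes (de novo synthesis, desaturation and elongation) of 4.18. The difference was 2.27, 2.21 and 2.27 in replicates 1 to 3, with a mean of 2.25 ± 0.04 (SD, n = 3). Means of 10 TPM or higher were found for all 17 breakdown genes and 7 of the 11 synthesis genes, and means of 100 TPM or higher for 7 and 2 of them. The size of the gap varied with the handling of low isozymes, which the arms hold unevenly, and with scaling by length. Breakdown leaves out Cpt1b, Cpt1c and Acaa1b, each below 1 TPM on average, and a gap with these included was not computed. Synthesis includes Acacb and Scd1 but leaves out Scd3, Scd4 and Fads3. With Acacb and Scd1 left out as undetected the gap was 1.45. With Acacb summed into Acaca and Scd1 into Scd2, an alternative chosen after seeing the data, it was 1.44. That alternative left the breakdown arm unchanged and acts on the same low isozymes as leaving them out. In CPM, which keeps all members but leaves out length, it was 1.08. In summed TPM, breakdown was 2.72 ± 0.0399 times synthesis and took 67.5 ± 0.359% of the members' transcripts, against 24.8 ± 0.241% for synthesis and 7.67 ± 0.173% for activation.

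The 9 genes of the spiral exceeded the 4 of de novo synthesis by 2.52, 2.35 and 2.44 on the log2(TPM + 1) scale, with a mean of 2.43 ± 0.09. This fell to 1.25 without the undetected Acacb and to 0.70 in CPM. Desaturation and elongation together differed from de novo synthesis by -0.07, -0.18 and -0.16, with a mean of -0.14 ± 0.06. That gap widened to -0.69 among detected members and to -1.13 in CPM. In summed TPM the order was the reverse. Desaturation and elongation came to 441, 437 and 442 TPM in replicates 1 to 3, and de novo synthesis to 172, 187 and 185 TPM. Activation differed from breakdown by -2.15 ± 0.05, and by -1.20 in CPM. The arm differences are given as descriptions, with no test.

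**Figure D3:**
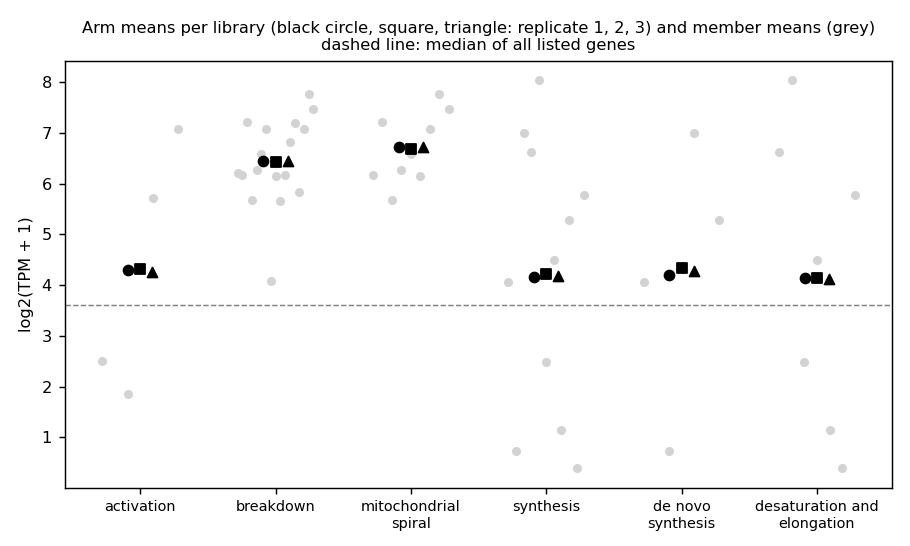
Mean log2(TPM + 1) of each arm in replicates 1, 2 and 3 (black circle, square and triangle) over the means of its members (grey), with the median of all listed genes as a dashed line. The breakdown arm at 6.44 and the spiral at 6.71 sit above activation and the synthesis arms, whose members reach from 0.39 to 8.03.

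Other genes of fatty acid metabolism were taken from 8 lists set by function, with 80 genes detected and 23 below 1 TPM in all libraries. The 80 were 76.2% of the genes of these lists that had a level, against 67.3% detected among all listed genes. Of all 16129 listed genes, 4831 were below 1 TPM in all libraries. Transport and carnitine genes had 7 of 11 detected, led by Slc27a6 (a fatty acid transport protein, 117 ± 5.33 TPM), Slc25a20 and Crot (the peroxisomal carnitine octanoyltransferase, 62.3 ± 2.27 TPM). Slc27a2, a transport protein of liver and kidney, was at 0.0767 ± 0.0231 TPM. All 15 listed genes of further mitochondrial oxidation were detected, with Ech1 (an auxiliary dienoyl-CoA isomerase, 217 ± 3.24 TPM), Hsd17b10 (132 ± 10.7 TPM) and Acat1 (a ketone body and isoleucine thiolase, 73.9 ± 1.44 TPM) highest. Peroxisomal oxidation had 12 of 15 detected, led by Scp2 (139 ± 6.07 TPM), the multifunctional enzyme gene Hsd17b4 (62.3 ± 3.98 TPM) and Phyh (45.8 ± 2.69 TPM). Of these, Abcd2 (0.643 ± 0.0404 TPM) was below 1 TPM in all libraries, beside Acaa1b.

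Of the other synthetases and the thioesterases 10 of 13 were detected. Acot7, a thioesterase that releases fatty acids from coenzyme A, was the highest in these lists at 333, 352 and 357 TPM. Acot9 was at 52.7 ± 2.02 TPM, while Acot1 (0, 0.3 and 0 TPM) and Acot4 (0.257 ± 0.0493 TPM) were below 1 TPM. In the synthesis list 4 of 5 were detected, with Mid1ip1, an activator of acetyl-CoA carboxylase, at 50.3 ± 0.384 TPM, the citrate carrier Slc25a1 at 43.6 ± 1.75 TPM and Mlycd, which destroys malonyl-CoA, at 22.7 ± 1.61 TPM. Me1, a cytosolic source of NADPH for synthesis, was at 0.51, 0.59 and 0.35 TPM. Of the desaturation and elongation list 8 of 17 were detected. They included Degs1 (the ceramide desaturase, 218 ± 1.92 TPM) and Cyb5a, the electron donor of desaturases (176 ± 13.5 TPM). They also included the remaining steps of the elongation cycle, Tecr (156 ± 4.97 TPM), Hacd3 (143 ± 5.27 TPM) and Hsd17b12 (72.4 ± 0.685 TPM). Elovl2 and Elovl4 were at 0.03 ± 0.03 and 0.18 ± 0.114 TPM. Mitochondrial fatty acid synthesis, which feeds lipoic acid, had 7 of 8 detected, led by the acyl carrier Ndufab1 (80.4 ± 2.16 TPM), Lias (17.9 ± 0.561 TPM) and Mcat (16.4 ± 1.38 TPM).

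Of 21 listed regulators 17 were detected. Pparg, the lipid-sensing nuclear receptor, stood at 193, 184 and 191 TPM, Prkag1, a subunit of the kinase AMPK, at 114 ± 2.08 TPM, and Srebf2, of the sterol response, at 104.95 ± 2.91 TPM. Srebf1, whose product drives fatty acid synthesis genes, was at 62.5 ± 1.58 TPM. Nr1h3 (0.547 ± 0.184 TPM) and Mlxipl, which encodes the carbohydrate response factor of liver (0.07 ± 0.03 TPM), were below 1 TPM in all libraries.

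**Figure D4:**
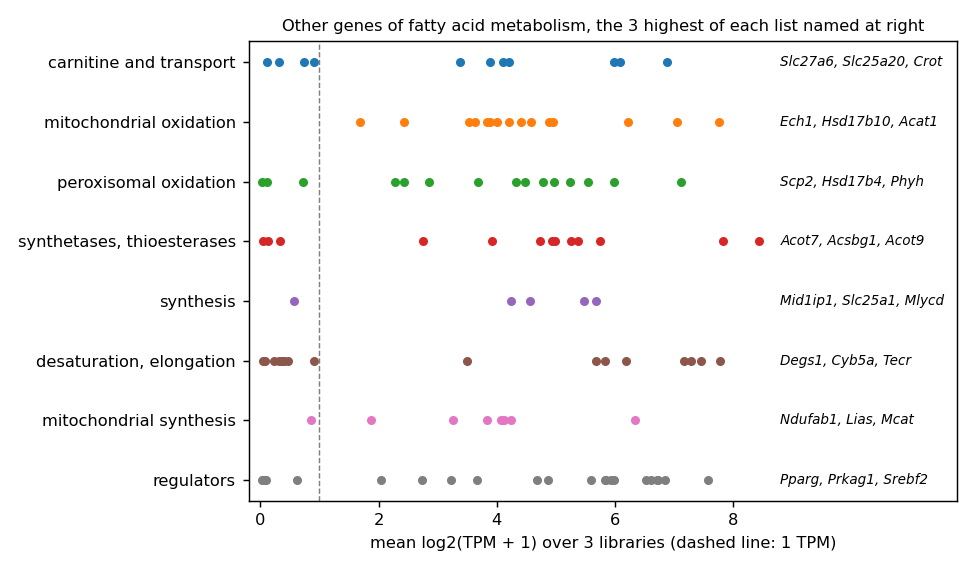
Mean log2(TPM + 1) over 3 libraries of the other genes of fatty acid metabolism, 1 row of points per list, with a dashed line at 1 TPM and the 3 highest of each list named at the right. Mitochondrial oxidation has no gene left of the line, while the desaturation and elongation list is split, with 8 of 17 genes detected.

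Neighbouring pathways are given for scale, with no test of a difference. All 17 genes of the tricarboxylic acid cycle were detected, with a median of 109 TPM, as were all 20 of cholesterol synthesis, with a median of 29.0 TPM, and all 15 of glycolysis, with a median of 165 TPM. The breakdown arm had a median of 76.2 TPM and the synthesis arm of 21.7 TPM.

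The spread between libraries was small and near that of other genes. Among the 26 members averaging 10 TPM or higher, the median coefficient of variation was 3.70%, against 3.87% for all 8262 genes at that level. Counting error alone, taken from the estimated reads, would give those 26 a median of 2.51%. Elovl5 varied by 0.612% and Acsl5 by 0.969% of their means, less than counting error alone would give on average (1.22% and 1.68%). The members furthest above counting error were Acly at 3.03 times and Fasn at 2.74 times, both lowest in replicate 1, and 8 of the 26 (30.8%) exceeded it by more than 2 times, against 23.2% of all genes at that level. The 6 members below 10 TPM varied by a median of 15.2%, close to their counting error, so Scd1, Acacb, Fads2 and Acsl3 are known less precisely than the rest.

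**Figure D5:**
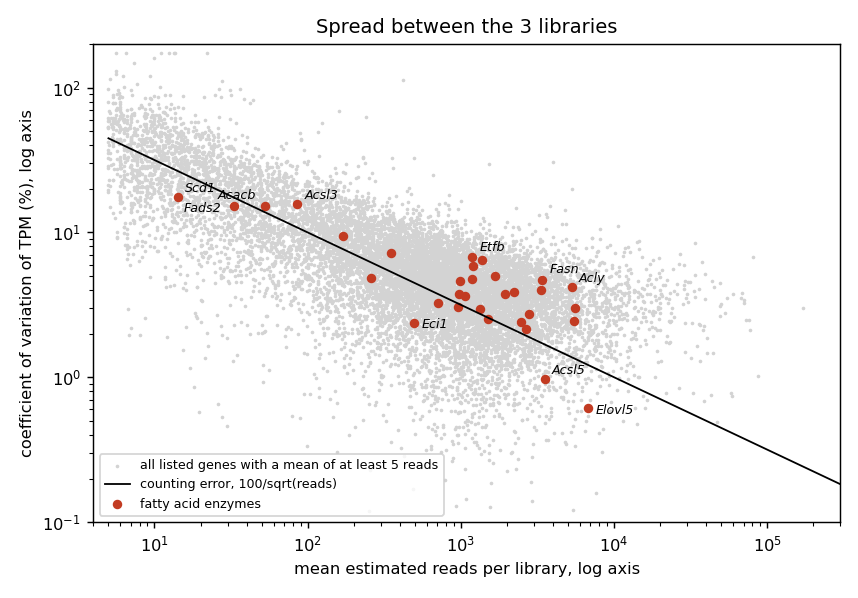
Coefficient of variation of TPM over the 3 libraries, in percent, against mean estimated reads, both on log axes, for listed genes with a mean of at least 5 reads (grey) and the fatty acid enzymes (red), with counting error as a line. Elovl5 and Acsl5 lie below the line and Acly and Fasn above it.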

How the data were processed

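RNA from sorted mouse lung ILC2s was sequenced in 3 libraries of 1 group, numbered as in their titles. Bowtie2, RSEM 1.3.1 and build GRCm38.p6 appear in the submitters' processing notes without settings, and no source used here gives the annotation. Per the file headers, the authors deposited TPM, used for all levels, and FPKM. The deposited expected counts, estimates that need not be whole, gave depth, counting error and CPM (counts scaled to 1000000 per library). The deposited normalised read counts, a depth-scaled signal, were not used. Reads of genes with shared sequence may be divided with error.

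Differences are on the log2(TPM + 1) scale, computed in Python 3.11.15 with pandas 2.3.3, per library, with mean and SD. Gene pairs had an exact sign-flip permutation test, adjusted over 13 pairs. Arm code was tested on simulated data with reads added to every gene and a pseudocount below 1. That test did not cover low genes or the pseudocount used for the results. Members and lists were chosen with earlier results of these data known. All members are named. Of each other list the 3 highest and up to 2 genes below 1 TPM in every library, in alphabetical order, are named. Cpt1b, Scd3, Scd4, Fads3, Hacd3, Hsd17b12, Srebf1 and Acsbg1's ratio to the Acsl sum were chosen after values were seen. Coordinates and promoters are from RefSeq (GRCm38.p6), matched for all 32 members. Shared 50-base words and opposite-strand exons are from GENCODE M21. Alternatives were a pseudocount of 0.1, FPKM, CPM, medians, detected members only, detection at 0.5 and 5 TPM, and leaving out each replicate.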

Additional observations from a re-analysis of the deposited data

How the results depend on the processing

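Every arm contrast kept its direction under every alternative run, but not its size. Summed TPM was not among these alternatives, and by that measure desaturation and elongation stood above de novo synthesis. Breakdown minus synthesis (2.25) became 2.60 with a pseudocount of 0.1, 2.03 with FPKM, 1.08 with CPM, 1.79 with medians, 1.45 with detected members only and 1.44 with isozymes summed. That last setting, chosen after seeing the data, joined only Acacb to Acaca and Scd1 to Scd2, all in the synthesis arm. In the same order of settings, the spiral minus de novo synthesis (2.43) became 2.73, 2.23, 0.70, 1.90, 1.25 and 1.24. Desaturation and elongation minus de novo synthesis (-0.14) became -0.22 with the smaller pseudocount, -1.13 with CPM, -0.69 with detected members only and -0.71 with isozymes summed. Activation minus breakdown (-2.15) became -2.30 with the smaller pseudocount, -2.00 with FPKM and -1.20 with CPM. Restricting to detected members leaves out Acacb and Scd1 by construction, and CPM leaves out length; for the other settings the cause was not tested. Leaving out each replicate gave 2.24 to 2.27, 2.39 to 2.48, -0.17 to -0.12 and -2.16 to -2.12 for these contrasts. Of 78 alternatives for the 13 gene pairs, 77 kept the direction, and Etfa minus Etfb reversed to 0.34 with CPM. CPM also moved the size of Hadha minus Hadhb (0.31 to 0.73), Eci1 minus Eci2 (-0.50 to -1.07), Acaa2 minus Acaa1a (-0.04 to -0.25), Fasn minus Acly (-1.71 to -0.64) and Cpt1a minus Acaca (3.01 to 1.98) by over 1.5 times. Without replicate 1, 2 or 3, Acaa2 minus Acaa1a lay between -0.07 and -0.02. Detected members numbered 31 at 0.5 TPM and 26 at 5 TPM, and the shares of all listed genes at these levels were not computed. With 12 to 60 reads behind Scd1 and Acacb, depth limits ratios to them.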
